A study of Mus musculus with 15 samples.

Results

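Integrins are cell surface receptors that hold cells to the extracellular matrix, and 8 of their subunit genes were examined across 15 single-colour oligonucleotide arrays of mouse MC3T3 cells: the alpha subunits Itgav, Itga5, Itga6 and Itga7 and the beta subunits Itgb1, Itgb3, Itgb5 and Itgb7. Every probe set whose only gene symbol in the platform annotation was that of a listed gene was taken, which gave 15 probe sets of the 12422 that were not controls. The deposited values are linear intensities. Of the 15 probe sets, 11 (for 7 genes) had a geometric mean intensity over the 15 arrays above 22.3, the 40th percentile of all probe sets, and were tested among 7453. An arithmetic mean can lie above that value in a probe set that was not tested. The 4 below it were the only Itgb3 probe set, 2 of the 3 for Itga7 and 1 of the 2 for Itgb7.

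MC3T3 clone 1b is a single clone of a line from mouse calvaria. There were 5 groups of 3 arrays each. Cells called treated received beta-glycerol phosphate (GP) together with BMP-2 (bone morphogenetic protein 2) and ascorbic acid for 1 or 3 days, cells called GP received GP alone for 1 or 3 days, and medium cells were taken in control medium at day 0. BMP-2 is a growth factor that induces bone, the enzymes that hydroxylate collagen need ascorbic acid, and GP supplies phosphate for mineral. All treated and GP cells therefore carried GP, ascorbic acid and BMP-2 were always given together and cannot be told apart, and the step from day 0 to GP day 1 is a change of both medium and time. Each array has a preparation number from 1 to 3, called the replicate here; the labels leave unsaid whether each was its own culture. The p-values given here therefore describe the spread among these arrays, and that spread may be technical.

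An integrin is a pair of 1 alpha and 1 beta subunit, and the pair decides which matrix protein is bound. The beta 1 subunit pairs with many alpha subunits, among them alpha 5 for fibronectin and alpha 6 and alpha 7 for laminin, while alpha V pairs with beta 1, beta 3 or beta 5 to bind vitronectin and other proteins that carry the RGD motif. In osteoblasts, beta 1 integrins bind collagen and fibronectin, and matrix contact through them is known to be needed for differentiation.

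The 6 osteoblast precursor markers on the array all passed the signal filter, led by Col1a1 and Col1a2, and their summed intensity was 19927 to 33538 on the 15 arrays. Of 10 leukocyte markers only Csf1r passed, and Ptprc averaged 2.79 intensity units. That is near 2.8, the 10th percentile of all values, used as a floor to which lower values were set before log2. The replicate 3 arrays had 12.1% to 14.3% of values at that floor, against 8.13% to 10.05% for replicate 1 and 7.29% to 8.89% for replicate 2. The actin 3' to 5' ratio, a sign of RNA quality, was 2.11 on the array of GP day 3 replicate 3 and 1.00 to 1.34 on the others. The number of arrays limits the precision of all that follows.

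Itgb5, the beta subunit that pairs with alpha V in a vitronectin receptor, was the 1 subunit of the 8 whose difference between treated and GP cells passed a test, and it did so only at day 1 and only when the replicate number entered the fit. Its probe set 100601_at read 1044.3, 970.1 and 556.9 intensity units in treated day 1 cells (replicates 1, 2 and 3), against 1437, 1471.7 and 940.4 in GP day 1 cells. Treated cells were lower within each replicate, by log2 differences of -0.46, -0.60 and -0.76, but the groups overlapped because replicate 3 was low in both. SEs and 95% intervals here and below come from the fit without the replicate number unless the block, which includes it, is named. The fitted log2 fold change was -0.61 ± 0.23 (SE, 95% interval -1.11 to -0.10, or -0.91 to -0.30 with the block). Its adjusted p was 0.313 in limma without the replicate number and 0.0263 with it as a block. In bulk samples such as these, fewer cells of a type and less RNA per cell cannot be told apart.

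**Figure D1:**
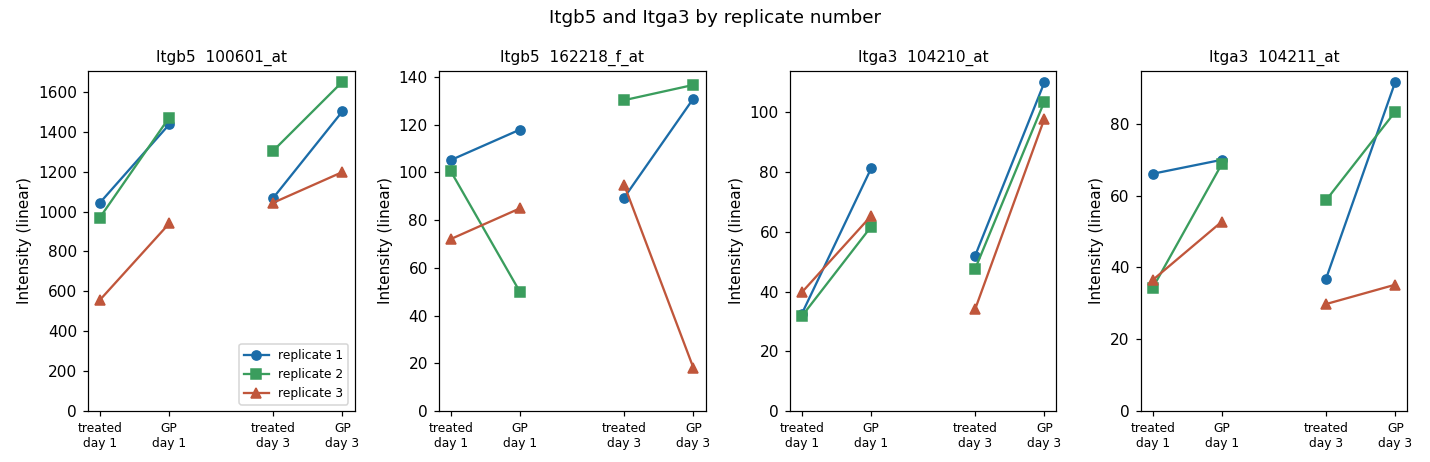
Intensity (linear axis from 0) of both Itgb5 and both Itga3 probe sets in treated and GP cells at days 1 and 3; each line joins the treated and the GP array of 1 replicate number. In the Itgb5 100601_at panel all 6 lines go up toward GP, while in the Itgb5 162218_f_at panel they do not share a direction; in both Itga3 panels all 6 go up toward GP.

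Across the 7453 tested probe sets, 4.99% were called at day 1 with the block and 2.92% were called as lower, beside 1 of the 11 integrin probe sets. That call was lost (adjusted p 0.0529) when values were floored at their 50th percentile and lost without the signal filter, at 0.0672, or without the mean trend, at 0.0706. Leaving out any 1 of 5 of the 6 arrays compared also ended it, with adjusted p-values of 0.0524 to 0.127; without treated day 1 replicate 1 it stayed, at 0.0228.

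After 3 days Itgb5 100601_at read 1068.4, 1305 and 1044.4 in treated cells, against 1502.9, 1651.5 and 1198.5 in GP cells, and was 1562.3, 1395 and 1276.7 in medium at day 0. Treated cells were again lower within each replicate, by -0.49, -0.34 and -0.20 on the log2 scale. The fold change of -0.34 ± 0.23 (95% interval -0.85 to 0.16, or -0.65 to -0.04 with the block) did not pass. Its limma adjusted p-values were 0.527 without and 0.131 with the block. The day 3 effect minus the day 1 effect was 0.26 ± 0.33, which also did not pass (limma adjusted p 0.9998, and 0.817 with the block). The 3 treated day 3 arrays were above the 3 treated day 1 arrays, the nearest values being 1044.4 and 1044.3, a pattern of 6.52% of tested probe sets, and that difference of 0.46 ± 0.23 had limma adjusted p-values of 0.654 and, with the block, 0.104.

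The other Itgb5 probe set, 162218_f_at, differed from the first in the sign of its fitted differences, each of which rested on 1 array. It read 105.2, 100.5 and 72.1 in treated day 1 cells, against 118, 49.8 and 85 in GP day 1 cells, and 89.4, 130.3 and 94.9 in treated day 3 cells, against 131, 136.7 and 18.1 in GP day 3 cells. Its log2 fold changes were positive, 0.20 ± 0.59 at day 1 and 0.59 ± 0.59 at day 3, and neither passed (limma adjusted p 0.974 and 0.698). Within replicates, however, treated was lower than GP in 2 of 3 pairs on both days, by log2 differences of -0.17, 1.01 and -0.24 at day 1 and -0.55, -0.07 and 2.39 at day 3. Without GP day 3 replicate 3, the array at 18.1 that also has the high actin ratio, the day 3 fold change was -0.37, and without GP day 1 replicate 2, at 49.8, the day 1 fold change was -0.13. Both are then below 0, as for 100601_at.

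The promoter of Itgb5 is shown because Itgb5 is the subunit with a call and BMP-2 signals through Smad proteins that bind DNA; that of Itga3, described further on, is shown for comparison. Both are the 250 bases before the RefSeq gene start in build GRCm38.p6, Itgb5 at chr16:33829415-33829664 on the plus strand and Itga3 at chr11:95076715-95076964 on the minus strand. Capitals mark GTCT or its reverse complement AGAC, the core of the Smad box.
Itgb5: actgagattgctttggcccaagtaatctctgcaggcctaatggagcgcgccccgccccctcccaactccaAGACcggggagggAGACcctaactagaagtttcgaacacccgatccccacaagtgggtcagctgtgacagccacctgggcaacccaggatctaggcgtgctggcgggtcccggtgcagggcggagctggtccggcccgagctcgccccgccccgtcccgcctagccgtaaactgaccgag
Itga3: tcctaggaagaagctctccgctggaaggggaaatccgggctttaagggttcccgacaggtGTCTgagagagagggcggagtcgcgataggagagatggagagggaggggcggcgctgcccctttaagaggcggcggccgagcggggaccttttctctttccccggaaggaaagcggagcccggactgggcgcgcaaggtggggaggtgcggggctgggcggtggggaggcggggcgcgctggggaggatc
Itgb5 held 2 such matches and Itga3 held 1. The motif is short and was present in 82.9% of the 32851 RefSeq promoters of this length. Promoters were matched for 5 of the 8 subunit genes, and the counts for Itgb1, Itga5, Itgb7 and Itgav were 3, 2, 2 and 0. GGCGCC, a GC-rich BMP Smad element that reads the same on both strands and cannot overlap the other motif, was present once in Itgb1 and in 9.6% of all promoters. A match describes the letters only.

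Itgb1, the common beta subunit of the collagen, fibronectin and laminin receptors, differed more between replicates than between treatments. Its probe set 100123_f_at read 2396.6, 2229.6 and 3296.2 in treated day 1 cells, against 2572.2, 2585.5 and 4432.4 in GP day 1 cells. It read 2940.2, 2629.6 and 3206 in treated day 3 cells, against 2332, 2379 and 3140.8 in GP day 3 cells, and 2873.1, 2768.6 and 3882.7 in medium at day 0. The 5 replicate 3 arrays lay at 3141 to 4432, above every array of replicates 1 and 2, at 2332 to 2940 and 2230 to 2769.

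Treated minus GP was -0.25 ± 0.22 at day 1 (95% interval -0.73 to 0.23) and 0.17 ± 0.22 at day 3 (-0.31 to 0.65) on the log2 scale. Neither passed, at limma adjusted p-values of 0.829 and 0.790, or 0.203 and 0.339 with the block. With the block the 95% intervals were -0.47 to -0.02 at day 1 and -0.06 to 0.40 at day 3. Without GP day 1 replicate 3, the array at 4432.4, the day 1 difference was 0.0128. The other Itgb1 probe set, 100124_r_at, also had its replicate 3 arrays highest, at 760.1 to 928.2, against 594.9 to 689 for replicate 1 and 612.5 to 687.6 for replicate 2. Its treated minus GP differences were 0.01 ± 0.19 and -0.06 ± 0.19 at days 1 and 3.

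Itgb3, which with alpha V forms the vitronectin receptor known from osteoclasts and platelets, lay below the signal filter. Its probe set 99904_at read 3.2, 3.3 and 3.6 in treated day 3 cells, against 16.5, 9.3 and 14.2 in GP day 3 cells. At day 1 it read 12.9, 20 and 13.3 in treated cells, against 8.3, 12.6 and 12.3 in GP cells, and in medium at day 0 it read 13.7, 2.2 and 1.5. Treated and GP cells did not overlap on either day, treated being above GP at day 1 and below it at day 3. Among tested probe sets, which exclude signals as low as that of Itgb3, 8.44% lay above at day 1 and 9.58% below at day 3.

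Fitted without the filter, Itgb3 had log2 fold changes of 0.47 ± 0.53 at day 1 and -1.95 ± 0.53 at day 3, with limma adjusted p-values of 0.962 and 0.0883. With the block the day 3 value was 0.0622, so the threshold of 0.05 was not passed. The size depends on the floor, since the treated day 3 values sit just above it: with the floor at the 25th percentile, 9.3, the day 3 fold change was -0.48. Both megakaryocyte markers on the array, from a cell type that carries beta 3, were below the filter.

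Itgav encodes the alpha V subunit and had 3 tested probe sets, none of which passed in any of the 6 comparisons. Probe set 104386_f_at read 2228.2, 2165.5 and 2527.1 in treated day 1 cells, against 1496.2, 1828.5 and 3031.6 in GP day 1 cells. At day 3 it read 2547.2, 1838.8 and 1990.7 in treated cells, against 1818.4, 1898 and 3294.5 in GP cells, and in medium it read 2009.3, 2210 and 3328.4. In both GP groups and in medium replicate 3 was the highest array, and the treated range lay within the GP range on both days. The log2 fold changes were 0.19 ± 0.28 (95% interval -0.41 to 0.78) at day 1 and -0.10 ± 0.28 (-0.69 to 0.50) at day 3.

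Probe set 104385_i_at of Itgav read 111.6, 12.1 and 80 in treated day 1 cells, against 92.3, 119.5 and 60.6 in GP day 1 cells. The array at 12.1 stood far below the other 14, which lay between 40.9 and 119.5, and the day 1 log2 fold change was -0.88 ± 0.62 (limma adjusted p 0.709). That negative value rested on this array: the differences within replicates were 0.27, -3.30 and 0.40, and without treated day 1 replicate 2 the fold change was 0.11. Probe set 98366_at read 17.2 to 57.4 over the 15 arrays, with fold changes of -0.20 ± 0.43 and 0.18 ± 0.43 at days 1 and 3.

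The other alpha subunits tested gave no call. Itga5, the fibronectin receptor subunit, read 56.4, 70.5 and 42.7 in treated day 1 cells, against 49, 66 and 35.6 in GP day 1 cells, so that treated was higher within all 3 replicates while the groups overlapped. Its log2 fold changes were 0.19 ± 0.34 at day 1 (limma adjusted p 0.942; -0.0384 without GP day 1 replicate 3) and 0.06 ± 0.34 at day 3 (0.966). Its ligand fibronectin, Fn1, did not pass either, at -0.13 ± 0.22 and -0.28 ± 0.22 at days 1 and 3.

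Itga6, a laminin receptor subunit, read 39.4, 40.9 and 28.9 in treated day 1 cells, against 27.2, 34.5 and 15.1 in GP day 1 cells. The day 1 difference was 0.57 ± 0.38 (95% interval -0.24 to 1.39), with limma adjusted p-values of 0.676 and, with the block, 0.319; at day 3 it was 0.03 ± 0.38. Itga7, the laminin receptor subunit of skeletal muscle, had 1 tested probe set, 161497_f_at, which read 10.9, 73.2 and 12.8 in treated day 3 cells, against 50.4, 41.2 and 28.7 in GP day 3 cells. That spread gave a difference of -0.85 ± 0.67 at day 3 and -0.40 ± 0.67 at day 1, and neither passed (limma adjusted p 0.594 and 0.939). Of 9 muscle markers on the array 3 passed the filter, the regulators Myod1 and Myog and the creatine kinase Ckm, averaging 52.3, 38.4 and 32.5 intensity units. The muscle structural genes Acta1 and Des averaged 9.53 and 12.8 and did not pass it. The part of muscle-like signal in the Itga7 values was not tested.

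Itgb7, a beta subunit known from lymphocytes, read 71.8, 106.2 and 56.9 on probe set 100906_at in treated day 1 cells, against 67.2, 43.5 and 27.1 in GP day 1 cells. Treated was higher within each replicate, by 0.10, 1.29 and 1.07, and the log2 fold change was 0.82 ± 0.52 (95% interval -0.30 to 1.94), with limma adjusted p-values of 0.649 and, with the block, 0.215. With the block the day 1 interval was 0.05 to 1.59. At day 3 the difference was -0.10 ± 0.52. The other Itgb7 probe set read 1.6 to 22.8 and was not tested. The summed leukocyte markers were 110.5 to 127.1 in treated day 1 cells, against 161.8 to 180.7 in GP day 1 cells. Only Csf1r of them passed the signal filter, and their part in the Itgb7 values was not tested.

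**Figure D2:**
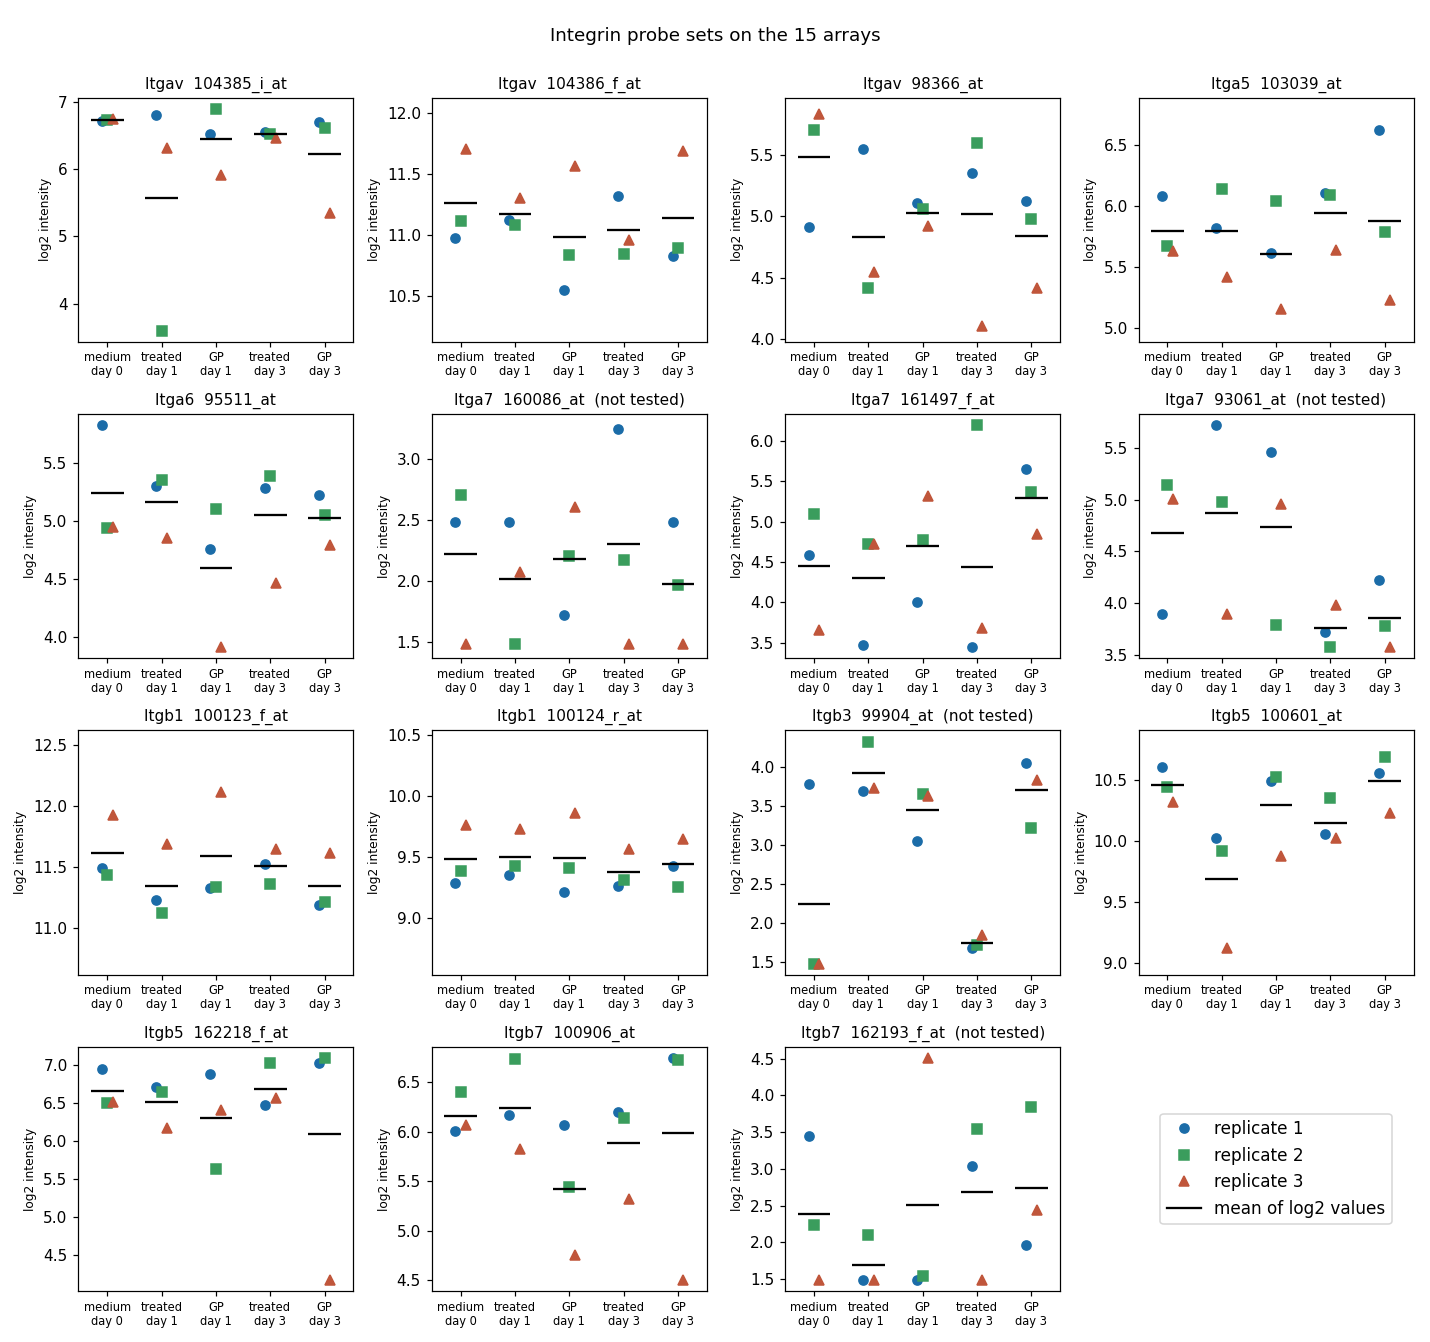
Log2 intensity of the 15 integrin probe sets on the 15 arrays, in 5 groups per panel, with symbols for the 3 replicate numbers and a bar for the mean of the log2 values of 3 arrays; each panel has its own axis, and values under 2.8 are drawn at that floor. Replicate 3 is the highest array in all groups of both Itgb1 panels, and for Itgb3 the treated day 3 arrays lie below the GP day 3 arrays.

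Counted over the 11 tested probe sets, limma without the block called 0 in each of the 6 comparisons. The background was 0.926% of the 7453 probe sets for treated against GP at day 1, 4.11% at day 3 and 0% for the difference between those effects. It was 0.242% for GP day 1 against medium day 0, 0.711% for GP day 3 against GP day 1, and 0.148% for treated day 3 against treated day 1. At an unadjusted p under 0.05 without the block, 1 of the 11 was counted for treated against GP at day 1. The share of all tested probe sets there was 11.3%, and the count was 0 of the 11 in each other comparison. The share of all probe sets in those others was 16.7% for treated against GP at day 3, 3.62% for the difference between the effects, 3.46% for GP day 1 against medium day 0, 6.43% for GP day 3 against GP day 1 and 8.29% for treated day 3 against treated day 1. With the block the call of Itgb5 at day 1 was the only one in the 6 comparisons, against backgrounds with the block of 4.99% at day 1, 13.8% at day 3 and 0% for the difference between those effects. The blocked backgrounds were 0.725% for GP day 1 against medium day 0, 1.85% for GP day 3 against GP day 1, and 3.84% for treated day 3 against treated day 1. Before adjustment, limma p-values with the block were under 0.05 for at least 1 of the 11 in all 6 comparisons. For treated against GP at day 1 these were Itgb5 100601_at (0.000827), Itgb1 100123_f_at (0.0348) and Itgb7 100906_at (0.0385). At day 3 it was Itgb5 100601_at (0.0297). The share of all probe sets at that level with the block was not counted, so these counts cannot be set against a background. For treated against GP it is at least the share called after adjustment, 4.99% at day 1 and 13.8% at day 3. The median log2 fold change of the 11 was 0.01 at day 1 and 0.03 at day 3, beside -0.00 over all tested probe sets on both days. The sign of these differences was seldom stable: when single arrays of the compared groups, or all arrays of a replicate number, were left out in turn, 8 of the 11 changed sign at least once on each day. Itgb5 100601_at was the one probe set below 0 in every such fit on both days, while Itga6 and Itgb7 100906_at stayed above 0 at day 1, and at day 3 Itgb1 100123_f_at stayed above 0 and Itga7 161497_f_at below it.

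Between medium at day 0 and GP day 1 the 11 probe sets had a median of -0.28, with 9 of them below 0 and none called, beside a median of 0.00 over all tested probe sets. The order of the 5 group means was seldom clear. For 13 of the 15 probe sets, every group overlapped the groups next to it in that order. The exceptions were Itgb5 100601_at and Itgav 104385_i_at, each with 1 of 4 neighbouring pairs apart; 15.7% of all tested probe sets had at least 1 such pair. The pair of Itgb5 was treated day 3 over treated day 1 and rested on a lowest value of 1044.4 in treated day 3 cells, against a highest of 1044.3 in treated day 1 cells. The order for Itgb5 100601_at ran GP day 3, medium, GP day 1, treated day 3, treated day 1 from high to low.

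**Figure D3:**
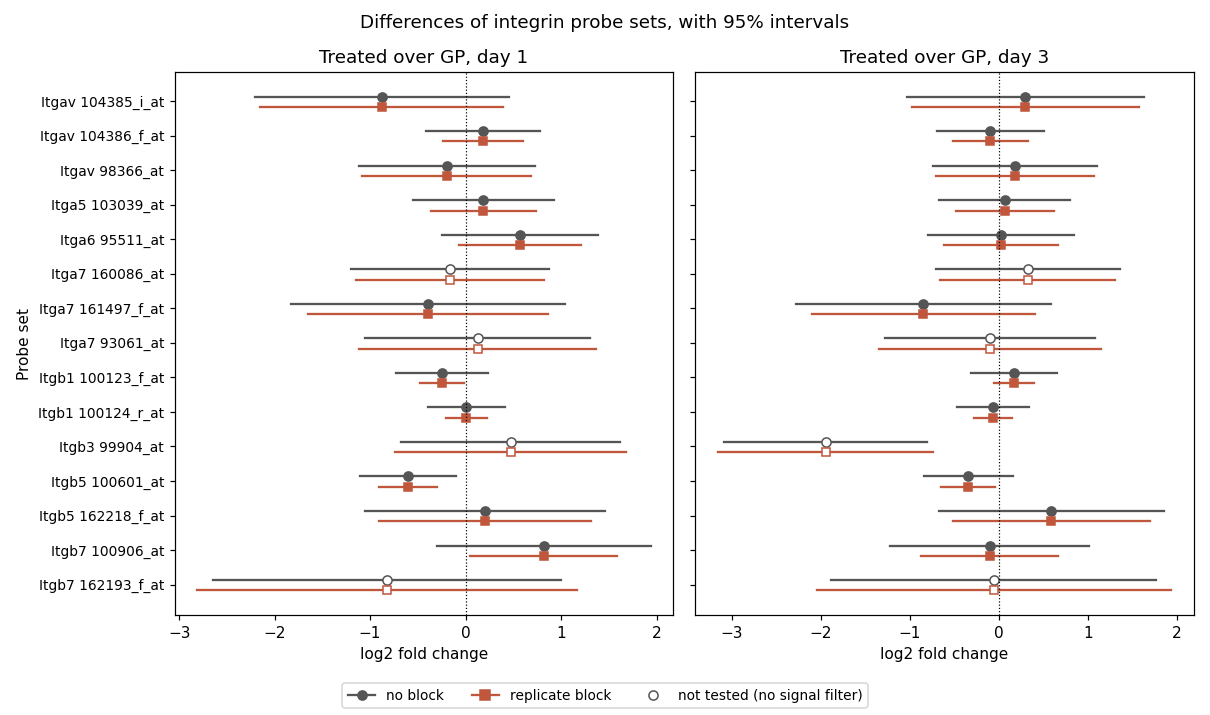
Log2 fold change of treated over GP cells for the 15 integrin probe sets at day 1 (left) and day 3 (right), with 95% intervals, from fits without (circles) and with (squares) the replicate block; open symbols were below the signal filter. Most intervals include 0; Itgb5 100601_at lies at -0.61 at day 1, and the open Itgb3 symbols lie at -1.95 at day 3.

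Of 18 other integrin subunit genes looked up, 10 were on the array and 3 passed the filter (Itga3, Itgb4 and Itgax). Itga3, a laminin receptor subunit that pairs with beta 1, fell on both days. Its probe set 104210_at read 32.5, 31.7 and 39.7 in treated day 1 cells, against 81.2, 61.7 and 65.3 in GP day 1 cells. It read 51.9, 47.5 and 34 in treated day 3 cells, against 110, 103.6 and 97.8 in GP day 3 cells, and 88.9, 111.5 and 81.7 in medium. Treated arrays lay below GP arrays without overlap on both days, a pattern of 9.58% of tested probe sets at day 3. The share at day 1 is not given here.

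The log2 fold changes of Itga3 were -0.9999 ± 0.22 at day 1 (limma adjusted p 0.0477, and 0.0157 with the block) and -1.24 ± 0.22 at day 3 (0.00626, and 0.00196 with the block). The day 1 call was lost without any 1 of the 6 arrays compared, at adjusted p-values of 0.0589 to 0.187, whereas the day 3 call held without each array in turn. The day 3 call was lost when only the groups compared entered the fit, at 0.0785, and without all replicate 1 or all replicate 2 arrays, at 0.170 and 0.205. The second probe set, 104211_at, was lower by -0.54 ± 0.37 and -0.69 ± 0.37 without passing (0.695 and 0.390).

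Genes that act with integrins were counted from lists of ligands, of adaptors and kinases inside the cell, and of membrane partners. Over all tested probe sets, limma called 0.926% at day 1 and 4.11% at day 3 (4.99% and 13.8% with the block), and 11.3% and 16.7% had an unadjusted p under 0.05. Among 22 tested ligand genes limma passed 0 at day 1, with 7 at an unadjusted p under 0.05, and 1 higher and 2 lower with the block. At day 3, 4 rose and 3 fell (6 and 6 with the block), with a median log2 fold change of 0.16. The smallest p was that of Col4a1, a basement membrane collagen, at -2.24 ± 0.28 (limma adjusted p 0.00114). Tgfb1, a growth factor that alpha V integrins can release from its latent form, followed at 2.36 ± 0.33 (0.00146). Next came the matrix glycoprotein Tnc at 2.35 ± 0.45 (0.0105) and the fibrillar collagen Col3a1 at 1.27 ± 0.24 (0.0106). Without the GP day 3 array of high actin ratio, 4 rose and 2 fell.

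Of 24 tested adaptor and kinase genes limma passed 0 at day 1, with 2 at an unadjusted p under 0.05, and 1, Cav1, with the block. At day 3, 3 of them fell, and the medians of the list were -0.06 and -0.02 at days 1 and 3. Those that fell were Cav1, the caveolae protein, at -1.09 ± 0.21 (limma adjusted p 0.00972), and the LIM domain proteins Lpp at -0.82 ± 0.15 (0.00773) and Fhl2 at -0.79 ± 0.17 (0.0201). Cav1 averaged 438 ± 26.6 in treated day 3 cells and 931 ± 80.3 in GP day 3 cells (SD, n = 3 each). Tln1, which activates integrins by binding their beta tails, did not pass, at 0.02 and -0.17 on the log2 scale at days 1 and 3. Without the GP day 3 array of high actin ratio 2 of the 24 fell at day 3.

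Among 13 membrane partners, Slc3a2, the CD98 heavy chain that binds integrin beta tails, fell on both days. It averaged 1028 ± 107 in treated day 1 cells and 1659 ± 257 in GP day 1 cells, and 1096 ± 36.1 in treated day 3 cells and 1663 ± 95.8 in GP day 3 cells (SD, n = 3 each). The log2 fold changes were -0.68 ± 0.14 (limma adjusted p 0.0303) and -0.60 ± 0.14 (0.0258), and the medians of the list were -0.34 and -0.29. Without the GP day 3 array of high actin ratio limma passed 0 of the 13 at day 3, with 5 at an unadjusted p under 0.05, and 4 with the block. With the block, 1 rose and 3 fell at day 1, and 2 rose and 4 fell at day 3, the tetraspanin Cd63 being among those that rose.

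**Figure D4:**
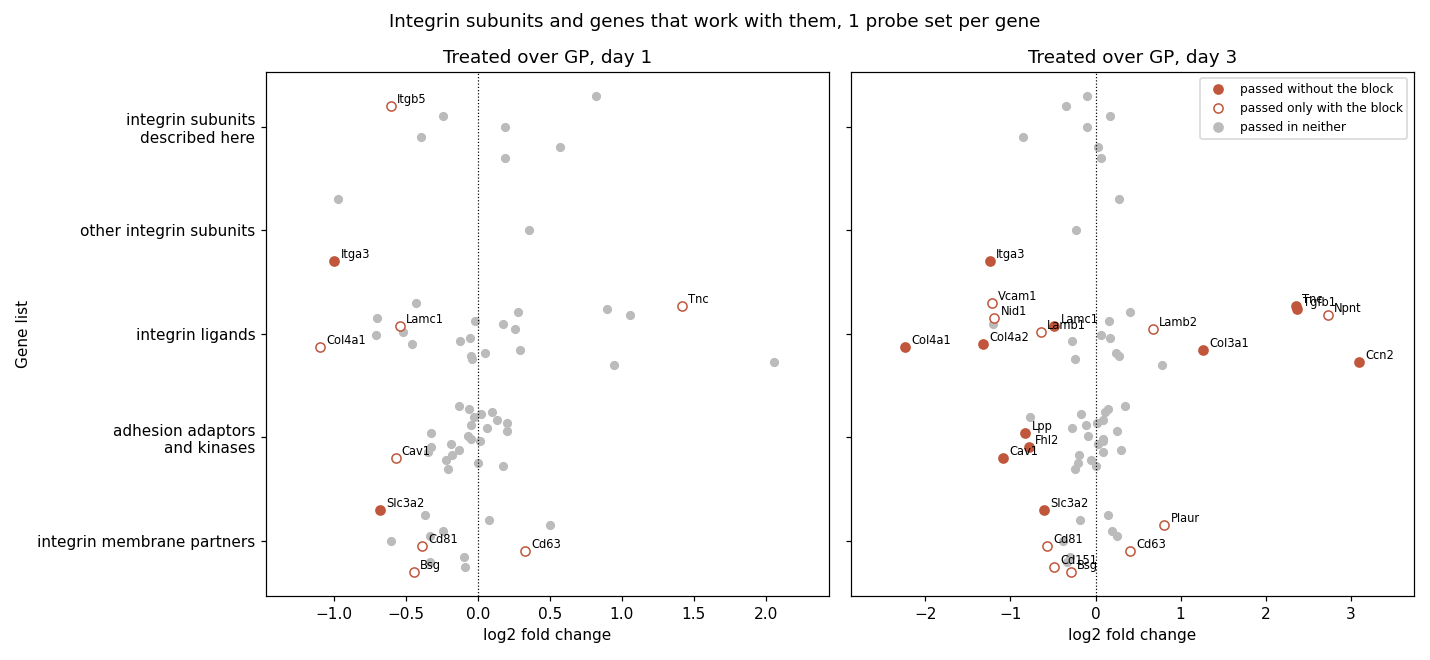
Log2 fold change of treated over GP cells at day 1 (left) and day 3 (right) for 1 probe set per gene, in rows for the 7 integrin subunits and 4 lists of genes that act with them; filled red points passed without the block, open red points only with it, and grey points in neither. Itga3 and Slc3a2 are filled on both days, and Itgb5 is open at day 1.

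The probe sets whose pattern over the 15 arrays was most like an integrin's were looked up for the 2 tested integrin probe sets whose group means ranged most widely. For Itgav 104385_i_at these were Dym, Hspa1a and Rpap3, with Pearson's r of 0.93, 0.88 and 0.88 and Spearman's rho of 0.80, 0.58 and 0.64. Without the 2 arrays farthest from the median, r was 0.67, 0.46 and 0.41, so the likeness rests in part on the array at 12.1. For Itga7 161497_f_at they were Ankrd10, Adam5 and Rae1, with r of 0.84, 0.80 and 0.79, and 0.70, 0.81 and 0.66 without 2 arrays. These are the highest of 5642 genes and carry no p-value.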

How the data were processed

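Values were linear intensities per probe set as deposited by the authors; the software, scaling method and detection calls are not given in the sources used here. The mean of each array without its 2% of values at each end was 150.1, so the arrays shared a scale. Values under 2.8 (10th percentile) were set to 2.8 and log2 values taken; 66 control probe sets and those whose mean log2 value was under its 40th percentile (a geometric mean intensity of 22.3) were left out of tests. Groups were fitted in limma 3.58.1 (R 4.3.3; lmFit, eBayes with trend) over all 15 arrays, with 10 residual degrees of freedom (8 with the block), Benjamini-Hochberg adjustment over 7453 probe sets and a threshold of 0.05. The fit was tested on simulated data.

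The replicate numbers were taken as pairing the arrays: in all 30 same-numbered pairs of arrays the deviations from the group means correlated, at 0.190 to 0.703.

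Names came from the platform annotation, which can be old; all 8 integrin Entrez identifiers were in RefSeq, with 0 symbols changed. All integrin probe sets were named, and from each list up to 4 called genes by smallest p; Fn1, Tln1 and Cd63 were chosen after their values were seen. Lists used 1 probe set per gene, that of highest mean signal. The suffixes _f_, _i_ and _r_ mark probe sets with shared sequence or relaxed design, so signal from related transcripts is possible. Integrin genes and lists were chosen with earlier results of these data known.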

Additional observations from a re-analysis of the deposited data

Results flagged for a closer look

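For 2 integrin probe sets every replicate moved one way at day 1 and the other way at day 3. The share of all probe sets with that pattern was not counted, so this count cannot be set against a background. For the difference between the day effects limma called 0 of the 7453 tested probe sets, with or without the block. Itgb1 100123_f_at was lower in treated than in GP cells in 3 of 3 replicates at day 1, by -0.10, -0.21 and -0.43, and higher in 3 of 3 at day 3, by 0.33, 0.14 and 0.03. The day 3 effect minus the day 1 effect was 0.417 ± 0.32 on the log2 scale and did not pass, with a limma adjusted p of 0.9998, or 0.393 with the replicate block. The other Itgb1 probe set did not show the same turn.

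Itgb3 99904_at was higher in treated than in GP cells in 3 of 3 replicates at day 1 and lower in 3 of 3 at day 3. The difference between those effects was -2.42 ± 0.74 in the fit without the signal filter and did not pass, with a limma adjusted p of 1, or 0.439 with the replicate block. All of its values lay below 22.3.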

How the results depend on the processing

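With the replicate block, which uses the pairing of the arrays, 1 integrin probe set was called at day 1, against 0 without it; the block changed no other count of integrin calls. In the fits without the block, including those without each array or replicate number in turn, and in those with the block without a replicate number, the counts were 0 at lowest and at highest in all 6 comparisons. With the block and without single arrays, the day 1 call of Itgb5 was kept in 1 of 6 fits and lost in 5. Over all tested probe sets the count for treated against GP was 69 at day 1 and 306 at day 3, with ranges of 0 to 372 and 2 to 1031 over the settings; the lowest came without replicate 1 or 2 at day 1 and without replicate 2 at day 3, and the highest with the block. Raising the floor to the 50th percentile (45.6) turned 5 log2 values, none of which passed. Itgav 98366_at turned to 0.0135 at day 1, and at day 3 Itga5 turned to -0.0300 and Itga7 161497_f_at to 0.18. In the interaction Itga7 161497_f_at turned to 0.18 and Itgb5 162218_f_at to -0.0576. Most values of 2 of these were set to that floor. Of the arrays compared, only 46.9 (treated) lay above it for Itgav 98366_at at day 1. For Itga7 161497_f_at at day 3 only 73.2 (treated) and 50.4 (GP) did. Leaving out 1 array or 1 replicate number at a time, without the block, turned the sign of 8 of the 11 probe sets on each day, none of them past the threshold. At day 1 the log2 fold changes of these ranged from -1.51 to 0.34 for Itgav 104385_i_at, -0.0327 to 0.48 for Itgav 104386_f_at, -0.55 to 0.0275 for Itgav 98366_at, -0.0384 to 0.41 for Itga5 103039_at, -0.74 to 0.0201 for Itga7 161497_f_at, -0.42 to 0.0128 for Itgb1 100123_f_at, -0.13 to 0.19 for Itgb1 100124_r_at and -0.20 to 0.49 for Itgb5 162218_f_at. At day 3 they ranged from -0.14 to 0.53 for Itgav 104385_i_at, -0.39 to 0.22 for Itgav 104386_f_at, -0.11 to 0.64 for Itgav 98366_at, -0.26 to 0.43 for Itga5 103039_at, -0.15 to 0.31 for Itga6 95511_at, -0.16 to 0.0378 for Itgb1 100124_r_at, -0.37 to 1.16 for Itgb5 162218_f_at and -0.85 to 0.27 for Itgb7 100906_at. The day 3 effect minus the day 1 effect of Itgb5 100601_at ranged from -0.0223 to 0.47. Signal near background limits Itgb3, Itga7 and the second Itgb7 probe set. The fold changes with arrays or replicate numbers left out, and the checks of Itgb5 under the block, of Itgb3 without the filter, of Itga3 and of the lists without 1 array were added after seeing the data.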

Other observations

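Within treated cells, some genes that act with integrins differed between day 3 and day 1 when the replicate number entered the fit, though none passed without it. With the block, limma called 4 ligands higher and 1 lower of 22 tested. Of 24 adaptor and kinase genes 1 was higher and 2 lower, and of 13 membrane partners 1 was higher and 1 lower. The share called with the block over all tested probe sets was 3.84%. Cd9, Vcl and Tes are described here and were chosen after their values were seen. Cd9, a tetraspanin partner of integrins, averaged 2127 ± 126 in treated day 3 cells and 1180 ± 413 in treated day 1 cells (SD, n = 3 each), a log2 difference of 0.91 ± 0.28 with a limma adjusted p of 0.247, or 0.00360 with the block. Vcl, the actin-linking adaptor vinculin, averaged 1662 ± 163 in treated day 3 cells and 990 ± 373 in treated day 1 cells, at 0.81 ± 0.25 (limma 0.257, and 0.0120 with the block). Tes, a LIM domain protein of focal adhesions, averaged 48.5 ± 24.0 in treated day 3 cells and 108 ± 14.2 in treated day 1 cells, at -1.26 ± 0.30 (limma 0.127, and 0.0146 with the block). From GP day 1 to GP day 3, Cd9, Vcl and Tes moved the same way, by 0.32, 0.32 and -0.53, without passing. The difference between the changes in treated and GP cells did not pass either. Its limma adjusted p-values with the block were 0.373, 0.559 and 0.606.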
